A study of Mus musculus with 273 samples.

Results

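The liver rhythm experiment holds all 77 liver libraries of a series of 273 small RNA libraries, and its members were chosen by tissue and time label alone. The question was which miRNA hairpins vary over 24 h in liver. The mice were wild-type C57BL/6J males aged 26 weeks, an inbred strain, and all groups share this genotype, sex and age; no treatment is given in the labels. Livers were collected every 3 h over 36 h, so that the times from 0 to 12 h were met again at 24 to 36 h. Zeitgeber time (ZT) was the time modulo 24 h, and by convention ZT0 is lights on, although the labels do not give the lighting. The groups ZT0, ZT3, ZT6, ZT9, ZT12, ZT15, ZT18 and ZT21 held 12, 12, 12, 11, 12, 6, 6 and 6 libraries. The brain of the same series (78 cortex, 72 hypothalamus and 46 striatum libraries) serves below only to ask whether a rhythm differed from that in liver.

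A miRNA gene is transcribed into a longer RNA that folds into a hairpin, from which 1 or both arms are cut and kept as mature miRNAs. The bases near the 5′ end, the seed, pair with messenger RNAs, which are then silenced. Many messenger RNAs of liver metabolism rise and fall daily under the circadian clock. Liver tissue also holds blood, endothelial and connective tissue cells, each with miRNAs of its own. In bulk tissue, fewer cells of a type and less RNA per cell cannot be told apart.

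Of 1226 hairpins, 853 had a count in liver and 258 passed the filter on low counts. A cosine and a sine of 24 h were tested together, and a hairpin was called at an adjusted p under 0.05. This called 11 of the 258 (4.26%), while 54 (20.9%) had an unadjusted p under 0.05. The size of a rhythm below is the log2 ratio of fitted peak to fitted trough. Its median over all 258 was 0.15, a value that is positive also without a rhythm. Filtered with the cosine and sine as the design, the same test called 12 of 241 (4.98%), with miR-874, miR-185 and miR-23b gained and miR-744 and miR-326 lost. The 11 called hairpins were miR-29b-1, miR-150, miR-5099, miR-142a, miR-223, miR-16-1, miR-342, miR-26a-2, miR-331, miR-744 and miR-326. Of these, 6 peaked between ZT0 and ZT6, 4 between ZT6 and ZT12, none between ZT12 and ZT18 and 1 between ZT18 and ZT24. The peaks of all 258 hairpins fell in those windows 76, 67, 56 and 59 times.

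Mature sequences of the called hairpins follow from RefSeq on GRCm38.p6, 5′ to 3′, with the seed (bases 2 to 8) in capitals; they show where a called hairpin shares an arm or a seed with another tested hairpin. miR-150-5p and the arms of miR-5099 are named only. The first pair comes from the hairpin at chr6:31063023-31063093, minus strand, which lies within the transcript Gm27019 and 363 bp from miR-29a.
miR-29b-3p: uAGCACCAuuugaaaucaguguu
miR-29b-1-5p: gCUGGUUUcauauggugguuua
miR-29a-3p: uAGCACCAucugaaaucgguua
miR-29c-3p: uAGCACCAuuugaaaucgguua
The miR-16-1 hairpin lies at chr14:61631880-61631972, minus strand, in Dleu2, 147 bp from miR-15a.
miR-16-5p: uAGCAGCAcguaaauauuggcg
miR-16-1-3p: cCAGUAUUgacugugcugcuga
miR-15a-5p: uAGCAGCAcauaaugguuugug
The miR-26a-2 hairpin lies at chr10:126995530-126995613, plus strand, in Ctdsp2.
miR-26a-5p: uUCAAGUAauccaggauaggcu
miR-26a-2-3p: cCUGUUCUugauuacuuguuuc
miR-26b-5p: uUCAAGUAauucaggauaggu
The hairpins of the blood cell miRNAs miR-150 (chr7:45121757-45121821, plus strand, no host gene), miR-142a (chr11:87756864-87756927, plus strand, in Mir142hg), miR-223 (chrX:96242817-96242926, plus strand, in F630028O10Rik) and miR-342 (chr12:108658620-108658718, plus strand, in an Evl intron) give these arms, whose seeds occur in no other tested hairpin.
miR-150-3p: cUGGUACAggccugggggauag
miR-142a-5p: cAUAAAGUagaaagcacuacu
miR-142a-3p: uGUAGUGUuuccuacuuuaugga
miR-223-5p: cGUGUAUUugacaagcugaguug
miR-223-3p: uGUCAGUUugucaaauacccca
miR-342-5p: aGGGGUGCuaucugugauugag
miR-342-3p: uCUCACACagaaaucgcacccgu
Of the last 3 called hairpins, miR-331 and miR-744 have arms whose seeds occur in no other tested hairpin, while miR-326-3p shares its seed with miR-330, which was not called.
miR-331-5p: cUAGGUAUggucccagggaucc
miR-331-3p: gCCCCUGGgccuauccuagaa
miR-744-5p: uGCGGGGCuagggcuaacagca
miR-744-3p: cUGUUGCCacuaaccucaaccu
miR-326-5p: gGGGGCAGggccuuugugaaggcg
miR-326-3p: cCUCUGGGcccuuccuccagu

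The miR-29b-3p, miR-16-5p and miR-26a-5p sequences are each encoded by a second hairpin (miR-29b-2, miR-16-2 and miR-26a-1), and a count per hairpin does not separate the arms. The seed of miR-29b-3p occurs in 3 other tested hairpins, that of miR-16-5p in 6 and that of miR-26a-5p in 2, and none of these was called. As 4.26% of all 258 tested hairpins were called, finding none in sets this small tells nothing about seed families. The other called hairpins are miR-5099 (chr12:36816205-36816278, plus strand, no host gene), miR-331 (chr10:93963768-93963863, minus strand, in Vezt), miR-744 (chr11:65734733-65734832, minus strand, in a Map2k4 intron) and miR-326 (chr7:99552269-99552363, plus strand, in an Arrb1 intron).

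Levels are given in CPM, that is counts relative to the TMM-scaled total of the library, without scaling to hairpin length. Library totals in liver ran from 1988671 to 5236177 counts with a median of 2920409, and a count of 0 allows up to 0.534 to 1.49 CPM by library. Profiles correlated with the median liver profile at 0.992 or more except in ZT9 replicate 4, at 0.972, where erythroid miR-451a reached 6483 CPM against a median of 765 CPM in the others. That library was also the highest of all 77 for miR-29b-1, miR-16-1 and miR-331, and the lowest for miR-744. Without it the same 11 hairpins were called. The hepatocyte markers miR-192 (mean 292880 CPM) and miR-122 (21378 CPM) marked the tissue as liver, while the 6 neuronal hairpins of the miR-124 and miR-9 type had no count in any liver library.

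miR-150, a miRNA of mature lymphocytes, had the largest rhythm among hairpins above 10 CPM. Its mean level from ZT0 to ZT21 was 126, 167, 186, 129.8, 106, 62.1, 83.7 and 86.6 CPM. At ZT6 the libraries ran from 100.4 CPM through a median of 186 CPM to 297 CPM, and at ZT15 from 45.9 CPM through 54.6 CPM to 93.1 CPM. All 12 ZT6 libraries thus lay above all 6 ZT15 libraries. The fitted peak was at ZT4.92 ± 0.41 h (SE) and the size was 1.33 ± 0.16 (SE, n = 77), a 2.51-fold range (edgeR adjusted p = 1.1e-09). In the order of the series, the means at 0 to 12 h were 110.2, 177, 204, 119 and 95.6 CPM. Those at 24 to 36 h were 142, 158, 168, 143 and 117 CPM. In both passages the highest of these means fell at ZT6. The second passage held no library of ZT15, ZT18 or ZT21, so it does not repeat the contrast with those groups.

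miR-142a, which is made across the blood cell lineages, was the most abundant called hairpin at a mean of 1351 ± 306 CPM (SD, n = 77). Its means from ZT0 to ZT21 were 1322, 1553, 1654, 1334, 1193, 1094, 1163 and 1193 CPM. Its ZT6 libraries ran from 1264 CPM through 1557 CPM to 2319 CPM, and its ZT15 libraries from 946 CPM through 1102 CPM to 1221 CPM, with no overlap. Its size was 0.55 ± 0.09 with a peak at ZT4.62 ± 0.55 h (edgeR adjusted p = 2.7e-06).

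miR-223, a miRNA of neutrophils and other myeloid cells, averaged 55.3 ± 16.1 CPM. Its means from ZT0 to ZT21 were 54.5, 62.7, 73.1, 52.0, 48.0, 42.3, 47.0 and 48.8 CPM. At ZT6 the libraries ran from 49.5 CPM through 64.1 CPM to 135 CPM, and at ZT15 from 32.2 CPM through 43.5 CPM to 49.3 CPM, again without overlap. The size was 0.65 ± 0.10 with a peak at ZT4.49 ± 0.57 h (edgeR adjusted p = 4.6e-06). Over all 11 called hairpins, these 3 were the ones whose highest and lowest ZT groups did not overlap. Those groups were picked by the same values that made the calls. The share of all 258 tested hairpins without overlap was not counted, so this is no further evidence of a rhythm.

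miR-342, encoded in the immune-expressed gene Evl, averaged 64.2 ± 14.9 CPM and peaked at ZT5.90 ± 0.70 h with a size of 0.48 ± 0.10 (edgeR adjusted p = 0.0015). At ZT6 its libraries ran from 57.9 CPM through 69.7 CPM to 98.9 CPM, and at ZT18 from 43.3 CPM through 47.0 CPM to 62.7 CPM. Of the 12 ZT6 libraries, 11 lay above all 6 ZT18 libraries. With library run 1 left out, its adjusted p was 0.139 and its call was lost.

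**Figure D1:**
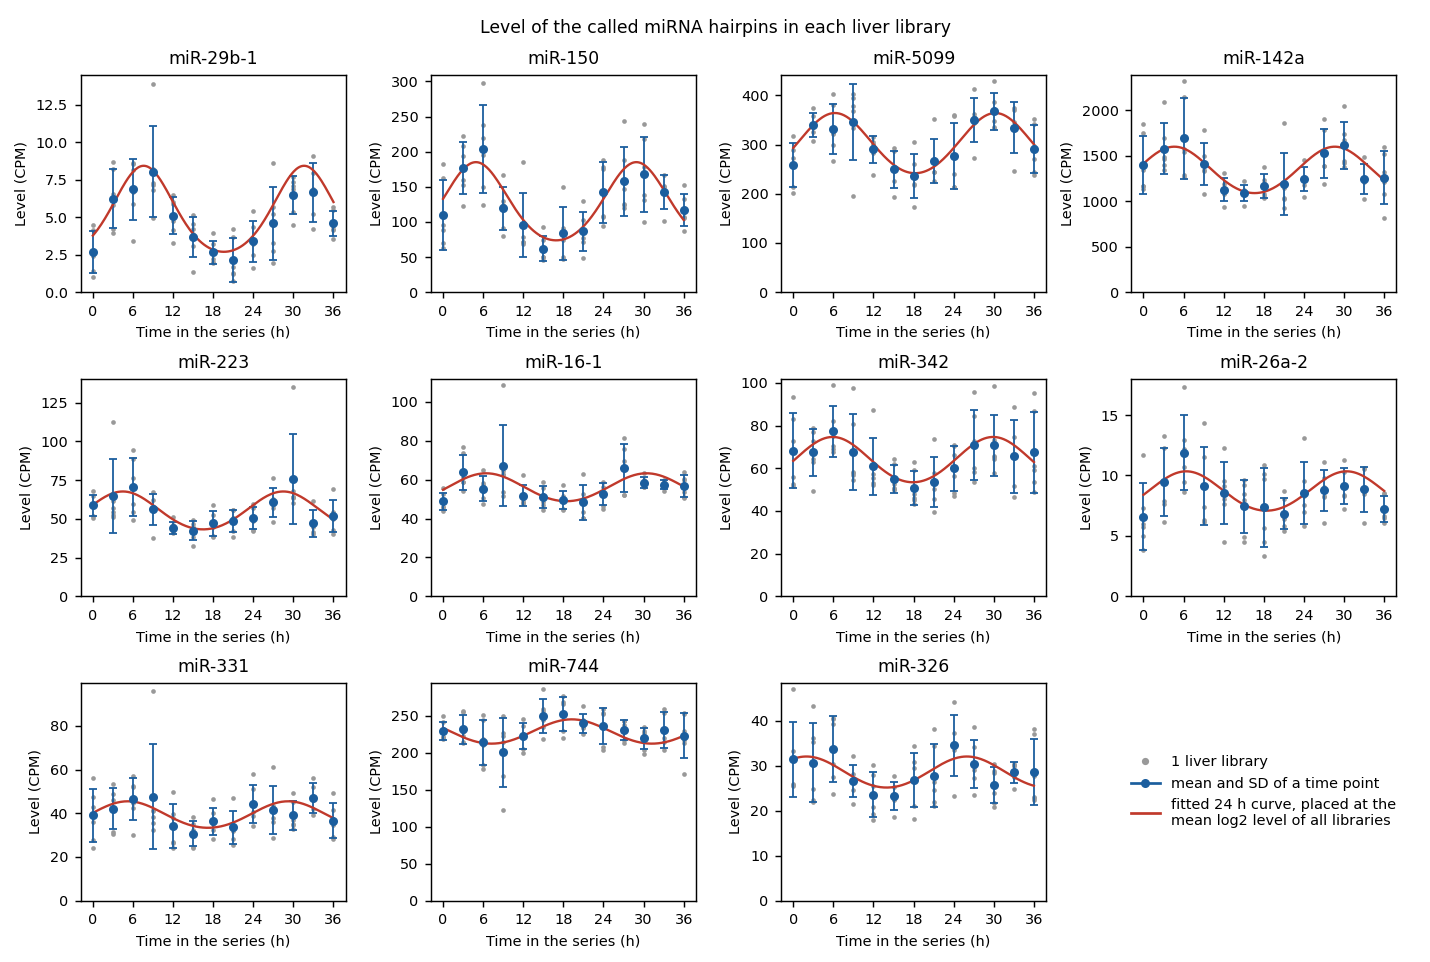
Level (CPM) of the 11 called hairpins over the 36 h series, with a grey point for each of the 77 liver libraries, blue points and bars for the mean and SD of a time point, and the fitted 24 h curve in red. For miR-150 the time-point means stand at 204 CPM at 6 h, 62.1 CPM at 15 h and 168 CPM at 30 h.

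These 4 were the called members of a list of 8 white cell miRNAs, of which 6 were tested. Over all tested hairpins, 11 of 258 (4.26%) were called. The list's median size was 0.52, against 0.15 over all tested hairpins. The list was drawn up with earlier results known, so it is no independent evidence. Of the other 2 tested, miR-146a had a size of 0.34 ± 0.14, a fitted peak at ZT13.9 and an adjusted p of 0.26, and miR-155, at 12.4 CPM, a size of 0.33 ± 0.18 and an adjusted p of 0.47. The summed white cell level averaged 2476, 2871, 3029, 2610, 2600, 2680, 2277 and 2529 CPM from ZT0 to ZT21, and single libraries ran from 1847 to 4778 CPM. The summed erythroid level (5 hairpins, 4 tested, 0 called) had medians of 935, 1112, 961, 1055, 992, 883, 887 and 942 CPM in the same order. Its member miR-451a had a size of 0.53 ± 0.19 and an adjusted p of 0.152, and of 0.14 with an adjusted p of 0.77 without ZT9 replicate 4.

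No called hairpin came from the lists for hepatocytes (9 tested), bile duct epithelium (5), mesenchymal cells (4) or endothelium (1), and the median size in these lists was 0.09, 0.05, 0.14 and 0.05, against 0.15 over all 258. At 4.26% called over all hairpins, lists of this length hold less than 1 call on average, so the counts of 0 tell nothing about these cell types. Among the hepatocyte miRNAs, miR-122, which dominates textbook liver profiles, had ZT means between 20796 and 22497 CPM. Its size was 0.05 ± 0.03, with an interval that ends at 0.11. miR-192, the most abundant hairpin here, had a size of 0.12 ± 0.06 (interval up to 0.24), and its adjusted p was 0.449. The next in level, miR-22, miR-148a, miR-30a and miR-10a, had sizes from 0.05 to 0.12 and none was called.

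miR-29b-1 had the largest size of the called hairpins and the lowest level. miR-29 miRNAs are known to target collagens and other matrix proteins. The means of miR-29b-1 from ZT0 to ZT21 were 3.03, 5.41, 6.66, 7.41, 4.83, 3.70, 2.65 and 2.14 CPM, and an average library gave 14.4 counts. Its ZT9 libraries ran from 4.20 CPM through 7.14 CPM to 13.9 CPM, and its ZT21 libraries from 0.725 CPM through 1.49 CPM to 4.21 CPM. Of the 11 ZT9 libraries, 10 lay above all 6 ZT21 libraries, although the lowest ZT21 values sit near what a few counts give. The size was 1.65 ± 0.19 with a peak at ZT7.60 ± 0.38 h (edgeR adjusted p = 1.7e-10), a 3.13-fold range. Without ZT9 replicate 4 the size was 1.59 (adjusted p = 3.5e-10).

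The other miR-29 hairpins did not pass the test. miR-29a, 363 bp away, averaged 3761 ± 267 CPM and had a size of 0.04 ± 0.03 (adjusted p = 0.76), with ZT means between 3643 and 3854 CPM. miR-29c averaged 565 CPM with a size of 0.09 ± 0.05 (adjusted p = 0.449). miR-29b-2, which encodes the same 3p arm as miR-29b-1, averaged 3.04 CPM with a size of 0.04 ± 0.18 (adjusted p = 0.99), and its interval reached 0.40. At levels of the same order, miR-29b-1 thus had an interval of 1.28 to 2.01, above that of miR-29b-2.

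miR-16-1, of a family known to restrain the cell cycle, averaged 55.9 ± 10.1 CPM. Its means from ZT0 to ZT21 were 50.7, 64.9, 56.9, 62.8, 54.2, 51.1, 49.4 and 48.3 CPM. Its ZT3 libraries ran from 51.9 CPM through 63.4 CPM to 81.6 CPM, and its ZT21 libraries from 40.3 CPM through 46.7 CPM to 63.1 CPM, with overlap. Its size was 0.37 ± 0.07 with a peak at ZT6.44 ± 0.68 h (edgeR adjusted p = 8.4e-04), and without ZT9 replicate 4 the size was 0.33 (adjusted p = 4.7e-04). miR-15a, 147 bp away in the same host transcript, averaged 519 ± 45.7 CPM with a size of 0.06 ± 0.04 (adjusted p = 0.64). miR-16-2, with the same 5p arm, averaged 8.86 CPM with a size of 0.22 ± 0.14 and a fitted peak at ZT7.64 (adjusted p = 0.62). In the miR-15/16 family, 1 of 7 tested hairpins was called, against 11 of 258 (4.26%) over all tested hairpins.

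miR-26a-2 lies in Ctdsp2, one of 3 phosphatase genes that each host a miR-26 hairpin. It averaged 8.43 ± 2.61 CPM, with means from ZT0 to ZT21 of 7.57, 9.11, 10.5, 9.01, 7.87, 7.44, 7.36 and 6.82 CPM. At ZT6 its libraries ran from 7.22 CPM through 9.89 CPM to 17.3 CPM, and at ZT21 from 5.37 CPM through 6.48 CPM to 8.70 CPM. Its size was 0.55 ± 0.14 with a peak at ZT6.39 ± 0.89 h (edgeR adjusted p = 0.038). miR-26a-1, with the same 5p arm, averaged 3.28 CPM and had a size of 0.36 ± 0.21 with a fitted peak at ZT5.64 (adjusted p = 0.50). miR-26b, at 9078 CPM, had a size of 0.07 ± 0.03 (adjusted p = 0.31). Of the miR-23, miR-27 and miR-24 hairpins, 0 of 6 were called, and 2 (miR-23b and miR-24-1) had p under 0.05. The shares over all 258 tested hairpins were 4.26% called and 20.9% with p under 0.05.

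**Figure D2:**
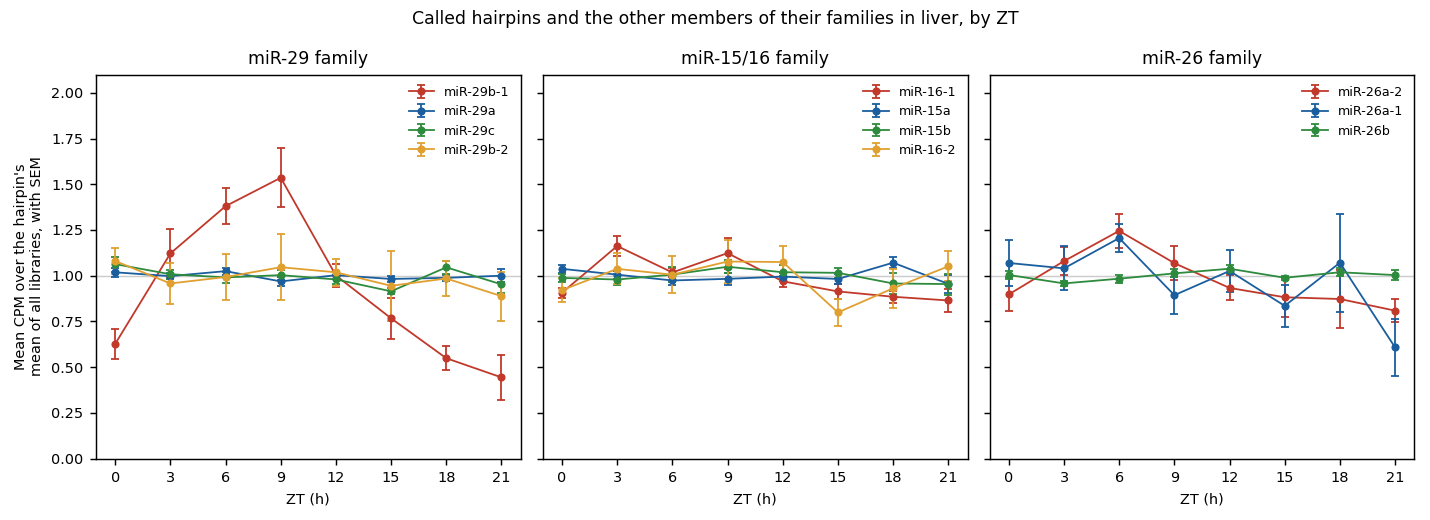
Mean CPM by ZT in liver, divided by the mean of the hairpin over all libraries, with the standard error of the mean, for called hairpins (red) and members of their families. miR-29b-1 has its highest mean at ZT9 (7.41 CPM) and its lowest at ZT21 (2.14 CPM), while miR-29a stays between 3643 and 3854 CPM.

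Hairpins that share a mature arm with a second copy were counted at low levels in the miR-26 and miR-29 families. miR-29b-1 and miR-29b-2 stood at 4.83 and 3.04 CPM, against 3761 CPM for miR-29a. miR-26b stood at 9078 CPM, against 8.43 CPM for miR-26a-2 and 3.28 CPM for miR-26a-1. How the authors treated reads that match 2 hairpins is not given in the sources used here, and its part in these rhythms was not tested. How far these counts, that of miR-29b-1 included, reflect the level of the shared mature arm was not tested either. By arm names in the RefSeq table, 25 tested hairpins share an arm with another hairpin, and 3 of these were called. Of the 207 tested hairpins that share none, 7 were called. Another 26 tested hairpins had no arm there, and 1 of them was called. The share called over all 258 was 4.26%. The median size was 0.13 in hairpins that share an arm and 0.15 in those that do not, at median levels of 22.4 and 39.6 CPM. Among hairpins under 100 CPM the medians were 0.17 (19 hairpins) and 0.20 (130 hairpins).

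miR-5099 averaged 303 ± 61.3 CPM, and its means from ZT0 to ZT21 were 268, 345, 349.8, 340.4, 291, 249.9, 236 and 267 CPM. At ZT6 its libraries ran from 267 CPM through 342 CPM to 429.5 CPM, and at ZT18 from 172 CPM through 229 CPM to 305 CPM. Of the 12 ZT6 libraries, 10 lay above all 6 ZT18 libraries. The size was 0.59 ± 0.08 with a peak at ZT6.23 ± 0.46 h (edgeR adjusted p = 1.0e-07).

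The last 3 called hairpins had adjusted p-values of 0.047 to 0.049. miR-331 had a size of 0.45 ± 0.12 with a peak at ZT5.22 ± 0.92 h; its libraries at ZT9 ran from 32.4 CPM through 41.2 CPM to 96.0 CPM and at ZT15 from 23.9 CPM through 31.0 CPM to 38.3 CPM. miR-326 had a size of 0.35 ± 0.10 with a peak at ZT1.97 ± 1.12 h; its libraries at ZT0 ran from 23.2 CPM through 33.4 CPM to 46.9 CPM and at ZT15 from 18.5 CPM through 23.0 CPM to 27.8 CPM. miR-744 was the called hairpin that peaked late, at ZT19.2 ± 0.94 h, and its size of 0.21 ± 0.06 was the smallest of the 11. Its libraries at ZT9 ran from 122 CPM through 221 CPM to 259.8 CPM and at ZT18 from 221 CPM through 260.1 CPM to 278 CPM. The 96.0 CPM of miR-331 and the 122 CPM of miR-744 at ZT9 both came from ZT9 replicate 4. In these 3 hairpins the highest and lowest ZT groups overlapped.

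**Figure D3:**
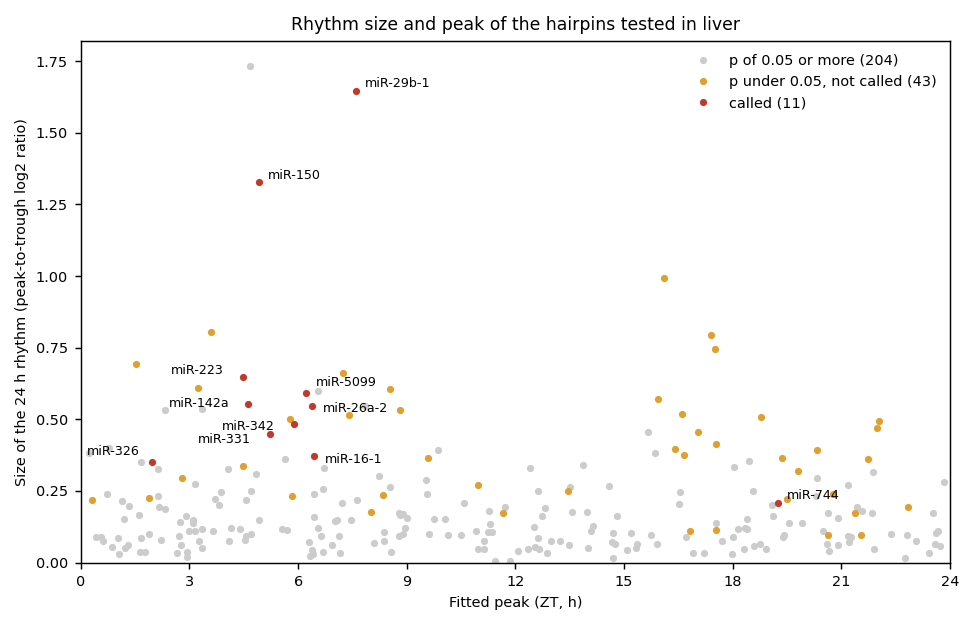
Fitted peak (ZT, h) against rhythm size (peak-to-trough log2 ratio) for the 258 hairpins tested in liver, with the 11 called in red and named, the 43 others with p under 0.05 in orange and the other 204 in grey. Called hairpins lie between ZT1.97 and ZT7.60 except miR-744 at ZT19.2; the grey point at 1.74 is miR-6244, at 0.750 CPM and an SE of 0.84.

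Just outside the threshold stood miR-874 (adjusted p = 0.053), miR-185 (0.069), miR-23b (0.081), miR-376b (0.081) and miR-335 (0.087). Their fitted peaks were at ZT11.0, ZT13.5, ZT11.6, ZT16.1 and ZT4.47, and their sizes 0.27, 0.25, 0.17, 0.99 and 0.34. The 43 that had p under 0.05 without a call had peaks spread over the day, with 9, 9, 12 and 13 in the 4 windows from ZT0. A list of miRNAs linked to clock genes in the literature had 3 of 30 tested members called (miR-142a, miR-29b-1 and miR-16-1), 7 with p under 0.05, and a median size of 0.12. Over all 258 hairpins 4.26% were called, 20.9% had p under 0.05 and the median was 0.15.

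A test among the 8 ZT groups, which assumes no curve, called 6 of 258 hairpins (2.33%), and 39 had p under 0.05. These were miR-29b-1 (edgeR adjusted p = 1.7e-07), miR-150 (2.6e-07), miR-5099 (2.0e-05), miR-223 (5.9e-05), miR-142a (1.9e-04) and miR-16-1 (6.5e-04), all called in the cosine test as well. A straight trend over the 36 h, tested beside the cosine and sine by edgeR, called 0 of 258 hairpins (0%), with 14 at an unadjusted p under 0.05; unadjusted p-values of the 11 rhythmic hairpins in it ran from 0.20 upward. DESeq2 size factors called 1 hairpin for a trend and the run term called 3. Terms with a period of 12 h had unadjusted p of 0.0996 or more in all 11.

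Libraries fell into 5 runs, taken as stretches of consecutive library numbers under 1 code in the labels, whose meaning is not stated. Runs 1 to 4 held 25, 14, 16 and 16 libraries and were fitted alone, while the 6 libraries of run 5 were too few. Within these runs miR-29b-1 had sizes of 2.05, 1.34, 1.54 and 1.20 with peaks between ZT7.44 and ZT8.12. miR-150 had sizes of 1.21, 0.83, 1.48 and 1.17 with peaks between ZT4.00 and ZT5.51. miR-5099 had sizes of 0.69, 0.76, 0.68 and 0.53 with peaks between ZT4.24 and ZT7.22. The fitted peaks of all 3 thus lay between ZT4.00 and ZT8.12 in each run. Run 1 held no library of ZT15, run 2 none of ZT15 or ZT18 and run 3 none of ZT21. In run 2 the unadjusted edgeR p of these 3 was 0.054, 0.15 and 0.052. Each run is a part of the libraries that made the calls. miR-142a had sizes from 0.37 to 0.72 with peaks from ZT1.67 to ZT5.00, and miR-223 from 0.33 to 0.79 with peaks from ZT0.12 to ZT5.36. miR-16-1 had sizes from 0.24 to 0.81 with peaks from ZT5.40 to ZT8.77, and miR-342 from 0.24 to 0.60 with peaks from ZT2.97 to ZT9.20. The size of miR-331 ran from 0.07 in run 3 to 0.49 in run 2.

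**Figure D4:**
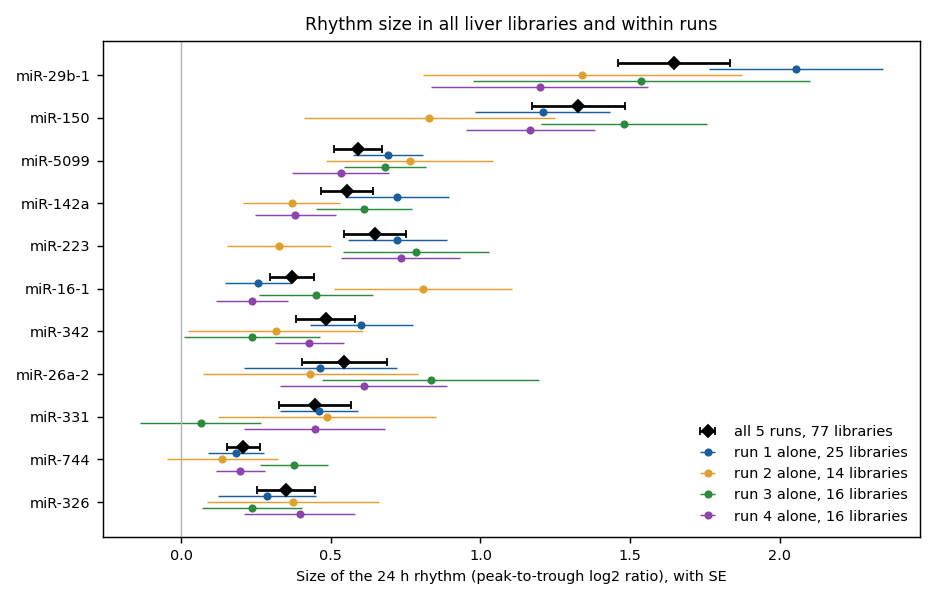
Rhythm size (peak-to-trough log2 ratio) with its SE for the 11 called hairpins in all 77 libraries (black diamonds) and within runs 1 to 4 alone (coloured points). miR-29b-1 stays between 1.20 and 2.05 and miR-150 between 0.83 and 1.48, while miR-331 falls to 0.07 in run 3.

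The first 6 hairpins by p (miR-29b-1, miR-150, miR-5099, miR-142a, miR-223 and miR-16-1) were called with each of the 77 libraries left out in turn. Fits of 1 run alone aside, they were called in every alternative that tested them: 20 in each case, but 19 for miR-29b-1, which a filter at a mean of 10 CPM removed. miR-342 was called without each library and in 19 of 20 alternatives. miR-26a-2, miR-331, miR-744 and miR-326 were called in 10 of 19, 6 of 20, 10 of 20 and 4 of 20 alternatives, and in 64, 24, 40 and 12 of the 77 fits that leave out 1 library. Their highest adjusted p-values in those fits were 0.084 (without ZT18 replicate 5), 0.12 (ZT15 replicate 4), 0.11 (ZT15 replicate 3) and 0.12 (ZT12 replicate 7).

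Called hairpins did not all move together from library to library within a ZT group. With ZT means removed from log2 CPM, 12 of 55 pairs among the 11 had adjusted permutation p-values under 0.05 by both Pearson and Spearman correlation over 77 libraries. miR-142a and miR-223 had r = 0.53 and rho = 0.55 (adjusted permutation p = 1.4e-04 and 1.8e-04, from the smallest p of 1e-05 that 100000 permutations can give), with r = 0.56 without the 2 farthest libraries and 0.52 with run means removed. miR-150 and miR-342 had r = 0.53 and rho = 0.54 (adjusted permutation p = 1.4e-04 and 1.8e-04), with r = 0.50 without the 2 farthest libraries and 0.44 with run means removed. miR-150 and miR-223 had r = 0.13 and rho = 0.15 (adjusted permutation p = 0.42 and 0.41), with r = 0.27 with run means removed. miR-150 and miR-5099, both high near ZT6, had r = 0.01 and rho = -0.02 (adjusted permutation p = 0.98 and 0.95), with r = 0.27 with run means removed. Before run means were removed, the largest r was that of miR-331 and miR-326, at 0.59 with rho = 0.58 (adjusted permutation p = 1.4e-04 and 1.8e-04). It was 0.60 without the 2 farthest libraries and 0.39 with run means removed. With run means removed, the largest r was that of miR-150 and miR-142a, at 0.66. Before that step this pair had r = 0.48 and rho = 0.45 (adjusted permutation p = 3.3e-04 and 6.4e-04). miR-223 and miR-342 had r = 0.37 and rho = 0.37 (adjusted permutation p = 0.0056 and 0.0093), and r = 0.50 with run means removed. miR-331 also correlated with miR-342 (r = 0.54), miR-150 (r = 0.45, and 0.18 with run means removed) and, negatively, miR-5099 (r = -0.44, and -0.28 with run means removed). The 12 pairs thus included 4 within the white cell list and others outside it, and several values moved with run. All pairs share library scaling, and its part in these values was not tested.

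The rhythm in liver was set against each brain region by the interaction of cosine and sine with tissue. It differed for 6 of 431 hairpins against cortex (1.39%), 4 of 441 against hypothalamus (0.907%) and 7 of 468 against striatum (1.5%). Labels give each liver library a code that recurs on brain libraries of the same time point, so tissues share animals if that code marks the animal; with that code as a block, the tests called 2 against cortex, 2 against hypothalamus and 1 against striatum.

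miR-29b-1 differed against all 3 regions. Its size was 1.65 ± 0.19 in liver, against 0.18 ± 0.11 in cortex, 0.39 ± 0.18 in hypothalamus and 0.27 ± 0.29 in striatum (edgeR adjusted p = 7.0e-08, 0.0034 and 1.9e-04). With the code as a block these were 2.4e-06, 0.0077 and 0.030. miR-150 had a size of 1.33 ± 0.16 in liver, against 0.16 ± 0.18 in cortex, 0.08 ± 0.18 in hypothalamus and 0.36 ± 0.24 in striatum (edgeR adjusted p = 0.0095, 0.0034 and 0.054). With the block these were 0.051, 0.0093 and 0.33, so that the call against cortex was lost. In the joint scaling with cortex its level was 245 CPM in liver and 1716 CPM in cortex. Likewise, miR-342 stood at 123 CPM in liver and 779 CPM in cortex. By contrast, miR-142a (2586 and 272 CPM) and miR-223 (106 and 6.63 CPM) were higher in liver. Which cells carried these rhythms in liver was not tested.

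miR-142a had a size of 0.55 ± 0.09 in liver and 0.04 ± 0.07 in cortex (edgeR adjusted p = 0.041, with the block 0.048). Against hypothalamus (0.04 ± 0.14) and striatum (0.15 ± 0.20) its adjusted p was 0.37 and 0.60. Among the 12 hairpins that come next by p in liver, miR-376b, miR-874 and miR-379 differed against cortex with adjusted p of 0.011, 0.041 and 0.041, and none of the 3 kept the call with the block (0.20, 0.051 and 0.23). miR-5099 showed no detectable difference: its size was 0.59 ± 0.08 in liver, against 0.57 ± 0.08 in cortex, 0.66 ± 0.10 in hypothalamus and 0.45 ± 0.18 in striatum (edgeR adjusted p = 0.53, 0.59 and 0.50). Fitted alone, it was called in cortex (adjusted p = 7.1e-07, peak ZT8.33) and hypothalamus (2.2e-06, peak ZT8.11) and not in striatum (0.90), where it averaged 26.5 CPM. It was the hairpin called in liver, cortex and hypothalamus each fitted alone, being the 1 call of 413 tested in cortex and the 1 of 400 in hypothalamus.

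**Figure D5:**
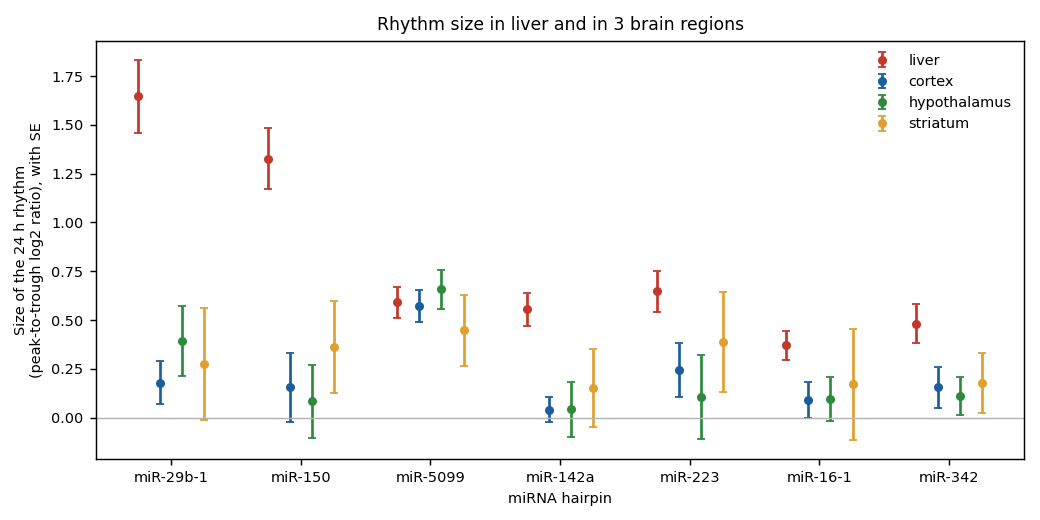
Rhythm size (peak-to-trough log2 ratio) with its SE of the first 7 called hairpins in liver, cortex, hypothalamus and striatum, each fitted alone. miR-29b-1 and miR-150 stand at 1.65 and 1.33 in liver and at 0.39 or less in the brain regions, while miR-5099 lies between 0.45 and 0.66 in all 4 tissues.

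The SE of the size was smaller in hairpins of higher level. The median SE of the size was 0.17 in the 83 tested hairpins under 10 CPM, 0.09 in the 78 at 10 to 100 CPM, 0.06 in the 57 at 100 to 1000 CPM and 0.05 in the 40 above 1000 CPM. The number called in these classes was 2, 5, 3 and 1, against 11 of 258 (4.26%) in all.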

How the data were processed

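The files hold raw counts per library and miRNA hairpin that the authors deposited; STAR 2.7.3a, HTSeq 0.10.0 and GRCm38 (mm10) are named in the submitters' processing notes, while trimming, annotation release and the treatment of reads matching several places are not given in the sources used here. A count per hairpin does not separate the arms, and whether it includes reads of an arm shared between hairpins is not given. Groups come from the labels' ZT and time point. Each liver library has its own code, taken as the animal; if it is not, p-values measure only the spread between samples.

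edgeR 4.0.16 in R 4.3.3 was run on the 77 liver libraries (TMM scaling, filterByExpr with ZT groups and a minimum count of 10, quasi-likelihood F test of cosine and sine of 24 h, Benjamini-Hochberg over all hairpins tested, threshold 0.05). Peak-to-trough log2 ratios and peaks carry delta-method SEs; intervals are 95%. Levels are CPM on TMM-scaled totals with SD over libraries. The floor of 3 counts and all intervals cover counting or fit error only, as no molecular identifiers are mentioned in the labels. Alternatives used DESeq2 1.42.0, limma 3.58.1 and other scalings, filters, runs and passages. Correlations used log2(CPM + 0.5). Positions and sequences are RefSeq GRCm38.p6; host genes are GENCODE annotation of the same build, and 251 of 258 tested hairpins were placed. Tests were checked on simulated counts. Permutation tests of correlations were two-sided and shuffled libraries within ZT groups (numpy 2.4.6); plots used matplotlib 3.10.9 under Python 3.11.15.

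The members and lists, the tests and the rule for naming were chosen with earlier results of these data known. The rule named every called hairpin, the next 12 by p, the 5 most abundant, the 3 most abundant tested of each list, and all members of the families of called hairpins. miR-155, miR-6244 and the grouping of the chromosome 12 hairpins fall outside it and were chosen after their values were seen; miR-127, miR-376b and miR-379 are among the next 12. No liver libraries were identical, and no column was left unused. Replicate numbers were not taken to pair the libraries: deviations of libraries with the same number had a median correlation of 0.06 (224 pairs, lowest -0.44), against -0.009 for other numbers. Libraries of the same run had a median of 0.11, against -0.04 for other runs. Within a ZT group the replicate numbers rise with the run number, so number and run are not separate.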

Additional observations from a re-analysis of the deposited data

Results flagged for a closer look

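Within ZT groups of 4 to 10 libraries, 84 combinations of hairpin and group were examined for a library far from the rest, and 4 had one; chance gives about 1 in 20. miR-5099 and miR-142a stood out in the same library, ZT21 replicate 4, with 353 CPM (others 226 to 269.99 CPM) and 1863 CPM (others 923 to 1170 CPM). miR-15a had 489 CPM in ZT18 replicate 6, below the 555 to 589 CPM of the others, and miR-23a had 368 CPM in ZT21 replicate 2, above 223 to 272 CPM. Without ZT21 replicate 4 both miR-5099 and miR-142a were still called.

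A rhythm that differed between liver and a brain region was found in 9 tests of named hairpins by the edgeR interaction test. Against cortex these were miR-29b-1 (adjusted p = 7.0e-08), miR-150 (0.0095), miR-376b (0.011), miR-874 (0.041), miR-379 (0.041) and miR-142a (0.041). Against hypothalamus they were miR-29b-1 (0.0034) and miR-150 (0.0034), and against striatum miR-29b-1 (1.9e-04). The liver size was the larger in all 9, but these hairpins were named by their rhythm in liver, and that choice favours a larger liver size. Differing hairpins outside the named ones are not included here.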

How the results depend on the processing

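The main 11 calls became 8 to 15 under other scalings, filters, tools, passages, a run left out, and terms for run, passage, depth or 12 h. Within 1 run alone, with fewer libraries, edgeR called 4, 0, 2 and 1 (runs 1 to 4; run 2 had 11 at an unadjusted p under 0.05). Leaving out 1 library each gave 7 to 16, with 7 calls without ZT3 replicate 2, ZT6 replicates 1, 2 or 4, ZT15 replicate 6, ZT18 replicate 5 or ZT21 replicate 5. The filter at a mean of 10 CPM left out miR-29b-1. The replicate numbers were not taken to pair the libraries (10 of 77 correlated best with their own of 12 numbers). With a replicate block the rhythm test called 23, the 11 included, and the ZT-group test 33. The ZT-group test called 12 with DESeq2, against 6. The trend, 0 in the edgeR test, gave 1 with DESeq2 size factors and 3 with run as a term. For the difference in rhythm against cortex (6), no filter on low counts gave 3 and the animal code as a block 2. Against hypothalamus (4), the run term and the animal code gave 2 each. Against striatum (7), DESeq2 size factors gave 4, the replicate block 12, the run term 1, leaving out striatum ZT21 replicate 3 and ZT9 replicate 6 gave 3, and the animal code 1. The animal code was added after seeing the data; the cause of these moves was not tested. Of the single hairpin values under all alternatives, 5142 kept their side of the threshold, 147 gained and 255 lost a call, and none reversed. Hairpins under 10 CPM carry few counts and had a median SE of the size of 0.17, so small rhythms there could be missed.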

Other observations

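miRNAs of the imprinted cluster on chromosome 12 (Dlk1-Dio3), which are abundant in brain, had like phases in liver, with none called over all 77 libraries. Within 300 kb of miR-127, 13 hairpins were tested. All 13 fitted peaks lay between ZT15.7 and ZT18.3, their median size was 0.41, 8 had an unadjusted p under 0.05 and 0 were called. Over all 258 tested hairpins the median size was 0.15 and 20.9% had an unadjusted p under 0.05. Peaks between ZT12 and ZT18 were found in 56 of the 258, 12 of the 13 among them. With 0 to 21 h alone, miR-376b, miR-409 and miR-541 were called, and with run 2 left out, miR-127 and miR-376b. miR-127, the most abundant of them at 329 CPM, averaged 289.7 ± 66.6 CPM at ZT6 (n = 12) and 487 ± 87.6 CPM at ZT15 (n = 6), with an adjusted p of 0.110. miR-379 and miR-376b stood at 2.64 and 1.32 CPM at ZT6 and at 7.09 and 3.51 CPM at ZT15. A count of 0 allows up to 0.534 to 1.49 CPM by library, so the ZT6 mean of miR-376b lies within that range. Neighbouring hairpins in the same libraries are not independent, and this group was noticed after its values were seen.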
